A study of Mus musculus with 6 samples.

Results

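The 67 genes described here encode the subunits of voltage-gated sodium, calcium and potassium channels, and they were read in RNA from the cortex of mouse embryos at E13.5. They were chosen by symbol alone: the Scn genes for the alpha and beta subunits of sodium channels, the Cacna1, Cacna2d, Cacnb and Cacng genes for calcium channels, and the Kcna, Kcnb, Kcnc, Kcnd, Kcnh and Kcnq genes for potassium channels. No measured value entered the choice. They are 67 of the 17348 genes in the table, and 56 of them had enough counts to be tested, among 13340 genes tested in all. The cortex of Ybx1 conditional knockout embryos (cKO, Nestin-Cre with Ybx1 fl/fl) was compared with that of controls labelled WT, with 3 libraries per genotype and 1 age. The labels give the controls only as WT and the study's sequencing methods call them wild-type littermates. Elsewhere the study's controls are Ybx1 fl/fl embryos without Cre, and which alleles the sequenced controls carried is not stated. Nestin-Cre acts in neural progenitors and passes the deletion to their progeny, so blood, vessel and meningeal cells in the tissue keep the gene. The sources used here do not say whether a library was made from 1 embryo or from several, and the p-values measure the spread between these libraries only.

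The libraries held 15907491 to 16282929 counts and 15677 to 16296 detected genes. The WT libraries (replicates 1 to 3) had 1021, 527 and 1219 CPM (counts scaled by library size) of the deleted gene Ybx1, and the cKO libraries (replicates 1 to 3) had 83.0, 117 and 147 CPM. WT replicate 2, going by its label, was intermediate, with less Ybx1 than both other WT libraries and more than each cKO library. Ybx1 differed by a log2 fold change of -3.00 (SE 0.33), with an adjusted p of 0.128 (quasi-likelihood test of edgeR, adjusted after Benjamini and Hochberg). Over the alternative analyses its log2 fold change ranged from -3.49 to -2.75. In cKO replicate 3 the epidermis markers summed to 242.5 CPM, against at most 0.44 in every other library, and the fibroblast and meninges markers to 516.5 CPM, against 6.98 to 14.98. The tissue label was checked on markers of its own cells: cortical neuron markers summed to 4836 to 6075 CPM and radial glia markers to 1736 to 2582 CPM in the 6 libraries. In bulk tissue, fewer cells of a type and less RNA per cell cannot be told apart.

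Voltage-gated channels open when the membrane potential changes. Sodium channels carry the upstroke of the action potential, potassium channels end it and set the firing threshold, and calcium channels turn depolarisation into calcium entry, which drives transmitter release and gene activity. Each is built on a pore-forming alpha subunit, with beta, alpha2delta or gamma subunits that change its trafficking and gating. In the embryonic cortex, progenitors and newborn neurons already carry some of these channels, and the mature set of the firing neuron is acquired later.

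The sequences upstream of 4 members are printed first. These members differ in level and in their number of CG dinucleotides, and include the channel with the lowest p between genotypes. Each printed window is the 250 bases before a RefSeq start (GRCm38.p6), written 5′ to 3′ on the gene's own strand, with each CG in capitals. Whether these starts are used in this tissue was not tested, so a window need not be the promoter in use, that of Cacng8 included. Kcna3 (chr3:107035912-107036161, plus strand) and Kcna5 (chr6:126535556-126535805, minus strand) encode alpha subunits of the same Kv1 class, and averaged 17.0 and 0.357 TPM (a level per transcript length) over the 6 libraries. Cacng8 (chr7:3393792-3394041, plus strand) encodes a gamma subunit that also accompanies AMPA receptors, and averaged 11.8 TPM with no CG in its window. Kcnh7 (chr2:63184288-63184537, minus strand) encodes a potassium channel of the Erg type, averaged 24.99 TPM, and is the one with that lowest p.
Kcna3: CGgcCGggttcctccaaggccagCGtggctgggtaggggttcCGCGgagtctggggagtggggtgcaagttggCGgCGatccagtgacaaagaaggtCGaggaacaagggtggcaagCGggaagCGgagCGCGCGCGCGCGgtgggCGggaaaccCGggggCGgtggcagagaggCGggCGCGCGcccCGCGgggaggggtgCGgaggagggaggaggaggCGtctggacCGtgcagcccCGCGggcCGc
Kcna5: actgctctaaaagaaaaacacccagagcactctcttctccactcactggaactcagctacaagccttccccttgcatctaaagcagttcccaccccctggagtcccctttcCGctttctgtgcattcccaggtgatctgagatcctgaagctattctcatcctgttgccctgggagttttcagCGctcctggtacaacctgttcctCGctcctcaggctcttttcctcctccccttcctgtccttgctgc
Cacng8: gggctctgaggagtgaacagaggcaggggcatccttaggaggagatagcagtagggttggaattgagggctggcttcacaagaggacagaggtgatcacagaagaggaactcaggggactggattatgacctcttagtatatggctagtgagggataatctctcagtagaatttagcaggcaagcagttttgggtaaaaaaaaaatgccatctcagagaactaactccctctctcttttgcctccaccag
Kcnh7: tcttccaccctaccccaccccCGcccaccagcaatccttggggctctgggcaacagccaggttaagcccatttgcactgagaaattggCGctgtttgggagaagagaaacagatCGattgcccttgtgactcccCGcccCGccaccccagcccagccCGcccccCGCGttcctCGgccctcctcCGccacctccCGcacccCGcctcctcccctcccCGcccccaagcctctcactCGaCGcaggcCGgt
These windows held 31 CG dinucleotides in Kcna3, 3 in Kcna5, 0 in Cacng8 and 16 in Kcnh7. RefSeq windows were matched for 48 of the 67 channels, taking the most upstream start listed for each. A median of 17 CG was found in 32 channels with a mean of at least 1 TPM, and a median of 5 CG in 16 channels below it. The same medians over the whole table were 16 CG (10240 genes) and 5 CG (3459 genes). A window with 10 or more CG was found for 65.6% of the former channels and 31.2% of the latter, against 75.7% and 27.7% of all genes. Among the most abundant channels, Cacnb3 had 2 CG in its window and Cacng7 had 9, while Cacna2d1 had 36 and Cacnb1 had 26. High levels were thus met with few and with many CG in these windows.

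Of the 67 channels, 49 reached a mean of 1 TPM over the 6 libraries (73.1%, against 73.7% of all genes listed), while 20 reached 10 TPM (29.9%, against 54.7% of all genes). The share of channels past 1 TPM was thus close to that of all genes, and the share past 10 TPM was lower. Levels between genes are given below in TPM as the authors deposited it, so that they are per length. The most abundant members were auxiliary subunits, as the plot of TPM by library shows.

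**Figure D1:**
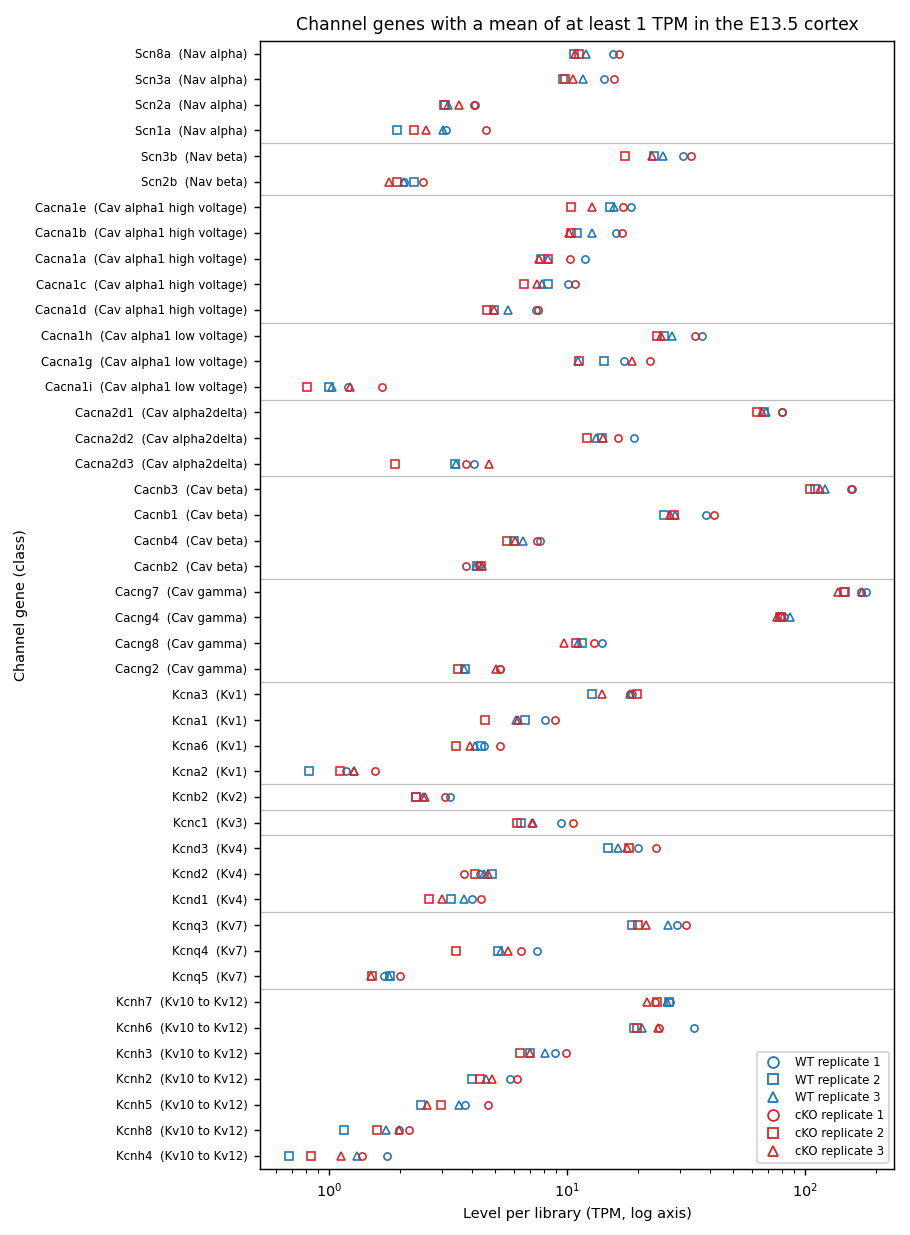
Level of 44 of the 49 channel genes with a mean of at least 1 TPM, by library (TPM, log axis), grouped by channel class. Blue symbols are WT and red symbols cKO libraries, and the symbol gives the replicate. Cacng7, Cacnb3, Cacng4 and Cacna2d1 lie to the right of all other members, and the circles of replicate 1 are often the rightmost symbols of a row.

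Sodium channel alpha subunits were led by Scn8a and Scn3a. Scn8a, the main sodium channel of adult nodes of Ranvier, was at 15.60, 10.75 and 12.06 TPM in WT replicates 1 to 3 and at 16.54, 11.24 and 10.87 TPM in cKO replicates 1 to 3. Scn3a, known as the embryonic brain sodium channel, averaged 11.9 ± 2.403 TPM in WT (SD, n = 3) and 12.1 ± 3.195 TPM in cKO (SD, n = 3). These genes made up 35.1% ± 0.58 and 32.5% ± 1.012 (SD, n = 3) of the alpha subunit TPM of WT libraries. Scn2a and Scn1a, the pair that later serves the axons of excitatory and inhibitory neurons, averaged 3.497 and 2.92 TPM. Scn11a and Scn9a, best known from sensory neurons, averaged 0.828 and 0.338 TPM, in libraries whose sensory neuron markers summed to 9.79 to 13.54 CPM.

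Scn3a, Scn2a, Scn1a, Scn9a and Scn7a form a cluster on chromosome 2 (GRCm38.p6). Scn3a lies at chr2:65457118-65567591, Scn2a at chr2:65620764-65767447, Scn1a at chr2:66270781-66440837, Scn9a at chr2:66480080-66635114 and Scn7a at chr2:66673426-66784910. Their mean levels in that order were 11.98, 3.497, 2.92, 0.338 and 0.012 TPM, so that each gene was below its neighbour on the map. This order is a description of 5 genes and was not tested. Scn7a had counts in cKO replicate 3 alone, with 4 counts, and 0 counts in a library allow up to 3 counts, or 0.184 to 0.189 CPM.

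Among the sodium channel beta subunits, which tether the channel to adhesion molecules and speed its gating, Scn3b took 87.8% ± 2.24 (SD, n = 3) of the WT class total. It was at 30.94, 23.24 and 25.34 TPM in WT and 33.20, 17.62 and 22.91 TPM in cKO replicates 1 to 3. The genotypes overlapped, and replicate 1 was the highest library in each. Scn2b averaged 2.11 TPM and Scn4b 0.062 TPM.

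High-voltage-activated calcium channels had 5 alpha1 members at similar levels. Cacna1e, the R-type pore, averaged 16.5 ± 1.81 TPM in WT (SD, n = 3), followed by the N-type Cacna1b with 13.3 ± 2.59 TPM, the P/Q-type Cacna1a with 9.35 ± 2.21 TPM, the L-type Cacna1c with 8.76 ± 1.16 TPM and the L-type Cacna1d with 6.01 ± 1.27 TPM. The muscle and retina pores Cacna1s and Cacna1f averaged 0.200 and 0.037 TPM over the 6 libraries. Skeletal muscle markers summed to 2.69 to 4.16 CPM in these libraries. Of the low-voltage-activated T-type pores, Cacna1h was at 36.92, 25.55 and 27.80 TPM in WT and at 34.48, 23.93 and 24.96 TPM in cKO, and so outranked each high-voltage member in every library. Cacna1g averaged 15.9 TPM and Cacna1i 1.16 TPM.

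Auxiliary calcium channel genes covered a wide range, and 4 of them, Cacng7, Cacnb3, Cacng4 and Cacna2d1, were above every pore gene. Cacnb3, a beta subunit that brings the pore to the membrane, was at 158.15, 110.03 and 121.40 TPM in WT and at 156.88, 105.06 and 115.54 TPM in cKO replicates 1 to 3. It held 75.6% ± 0.19 (SD, n = 3) of the beta subunit TPM in WT, with Cacnb1 at a mean of 31.7 TPM, Cacnb4 at 6.58 TPM and Cacnb2 at 4.19 TPM. Cacna2d1, the alpha2delta subunit that binds gabapentin, averaged 72.1 ± 7.41 TPM in WT and 69.8 ± 9.30 TPM in cKO (SD, n = 3). It made up 79.2% ± 1.39 of its class in WT (SD, n = 3). The gamma subunits Cacng7 and Cacng4, which also act as partners of AMPA receptors, averaged 160 and 80.6 TPM. Cacng2 (stargazin) and Cacng8 averaged 4.40 and 11.8 TPM, while the muscle subunits Cacng1 and Cacng6 averaged 0.118 and 0.092 TPM.

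Potassium channels were led by Kv7 and Erg genes. Kcnq3, a subunit of the M-current channel that restrains repeated firing, averaged 24.6 TPM and made up 35.1% ± 1.89 (SD, n = 3) of Kv7 TPM in WT. Kcnh7 and Kcnh6, both of the Erg type, averaged 24.99 and 23.7 TPM, with the cardiac Erg gene Kcnh2 at 4.95 TPM. The A-type gene Kcnd3 (Kv4) averaged 18.5 TPM and Kcna3 (Kv1), best known from lymphocytes, 17.0 TPM. The Kv3 gene Kcnc1, whose channel allows fast firing in mature neurons, averaged 7.83 TPM. The delayed rectifier Kcnb2 (Kv2) averaged 2.67 TPM. Kcna1, Kcna6, Kcna2 and Kcna4 averaged 6.78, 4.27, 1.21 and 0.585 TPM.

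The remaining 11 members had too few counts for a test: Scn4a, Scn7a, Scn4b, Cacna1f, Cacng1, Cacng3, Cacng6, Kcna5, Kcna7, Kcnc4 and Kcnq1. Of these, 4 reached 10 counts in at least 1 library. Kcna5 had 4, 3 and 4 counts in WT and 7, 4 and 23 counts in cKO replicates 1 to 3, and Kcnc4 had 4, 10 and 6 counts in WT and 12, 7 and 20 counts in cKO. For both genes the highest library was cKO replicate 3, the library with the epidermis and fibroblast markers, and the part of those cells in these counts was not tested. Cacng3 had 11, 6 and 4 counts in WT and 13, 4 and 4 counts in cKO. Kcnq1 had 8, 2 and 9 counts in WT and 11, 7 and 3 counts in cKO, and its exons overlap the antisense transcript Kcnq1ot1.

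No channel gene passed the test between genotypes. At an adjusted p under 0.05, the quasi-likelihood test of edgeR, adjusted after Benjamini and Hochberg, called 0 of 56 channels higher and 0 of 56 lower in cKO, where 0.0% of all genes tested were called higher and 0.0% lower. At an unadjusted p under 0.05, 0 channels were higher and 1 was lower (1.79%), against 1.75% and 1.81% of all genes. DESeq2 and the limma fits also called 0 channels at an adjusted p under 0.05. The unadjusted count rested on single libraries: without cKO replicate 1, 7 of 56 channels were lower (12.5%, against 3.57% of all genes then tested). Without cKO replicate 2, 3 were higher (5.17%, against 2.46%) and 1 lower (1.72%, against 1.81%). Without cKO replicate 3, 2 were higher (3.51%, against 1.03%) and 0 lower (against 1.4%). The 3 cKO values were all below the 3 WT values for 1 channel (1.79%), against 4.83% of all genes, and all above them for 0 channels, against 4.21%. A log2 fold change below 0 was found for 35 of 56 channels (62.5%), against 49.2% of all genes. Their median log2 fold change was -0.06, and that of all genes tested was 0.00. Leaving out WT replicate 1 turned the channel median to 0.07 and leaving out cKO replicate 1 moved it to -0.18, so its sign rested on single libraries.

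**Figure D2:**
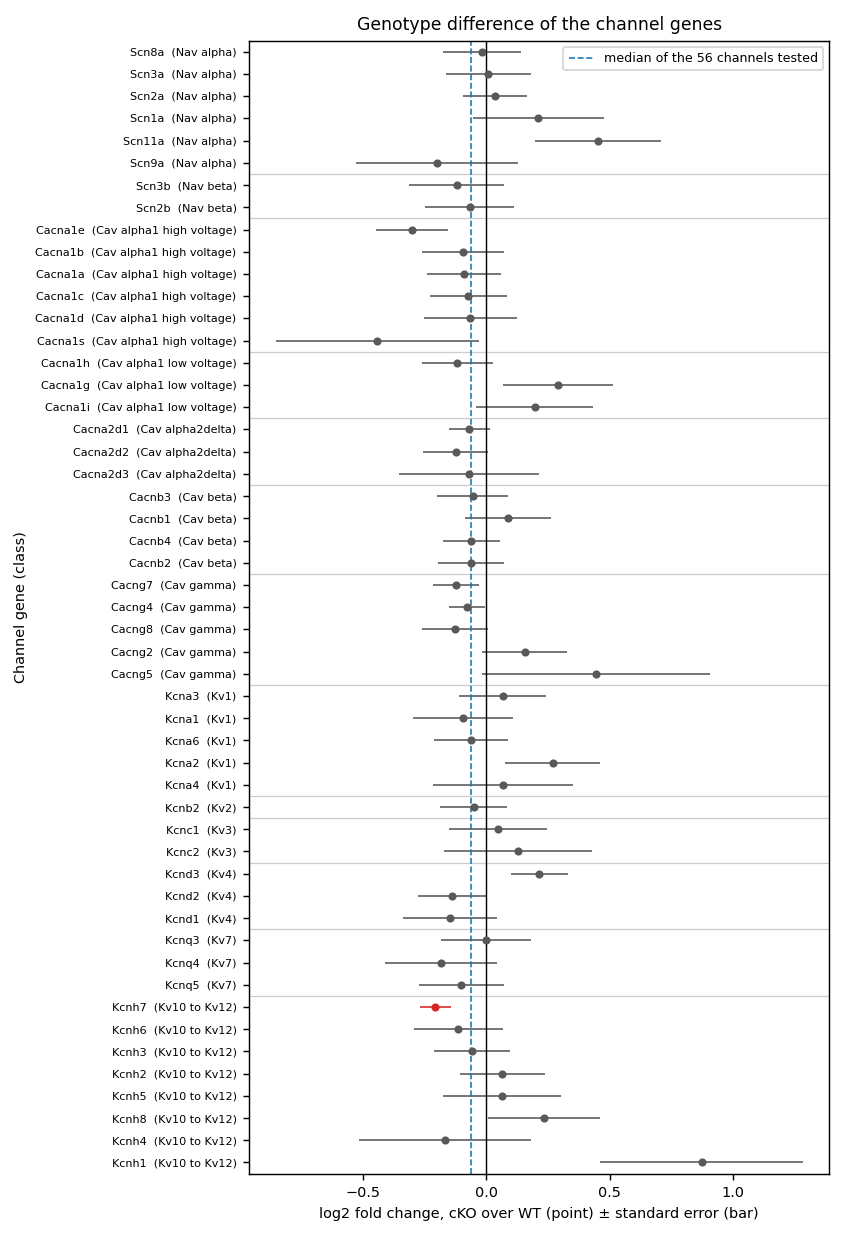
Log2 fold change of cKO over WT (points) with its standard error (bars) for 51 of the 56 channel genes tested, grouped by class. The dashed line is the median of -0.06 over all 56. Kcnh7, in red, was the 1 gene with an unadjusted p under 0.05, and no gene passed the adjusted threshold.

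Kcnh7 was the channel with the lowest p. It was at 27.19, 27.01 and 26.32 TPM in WT replicates 1 to 3 and at 23.56, 24.02 and 21.82 TPM in cKO replicates 1 to 3. All cKO libraries thus lay below all WT libraries, by a small margin. In normalised counts it averaged 116 ± 2.76 CPM in WT and 101 ± 4.83 CPM in cKO (SD, n = 3). The log2 fold change was -0.21 (SE 0.06), with an unadjusted p of 0.0124 and an adjusted p of 0.99998 over all genes (quasi-likelihood test of edgeR, adjusted after Benjamini and Hochberg). Without cKO replicate 3 its log2 fold change was -0.17 with an unadjusted p of 0.0575. Its exons overlap those of Gca on the opposite strand, and whether counting used strand is not given in the sources used here. Gca was at 18.9, 23.9 and 24.2 CPM in WT and 20.5, 21.7 and 21.0 CPM in cKO.

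Kcnh1, an ether-a-go-go channel also known from dividing cells, had the next lowest p. It was at 1.26, 0.56 and 1.12 CPM in WT and at 2.31, 2.07 and 1.02 CPM in cKO, so that cKO replicate 3 lay within the WT range. Its log2 fold change was 0.87 (SE 0.41), with an unadjusted p of 0.0670 in the same edgeR fit across all genes. Without cKO replicate 3 it was 1.16 with an unadjusted p of 0.0106. This is a gene of few counts, at 0.430 TPM on average.

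For Cacna1e, the R-type pore, WT libraries were at 122, 109 and 111 CPM and cKO libraries at 115, 75.0 and 88.2 CPM. cKO replicate 1 lay within the WT range and the other cKO libraries below it. The log2 fold change was -0.30 (SE 0.14), with an unadjusted p of 0.0713. Without cKO replicate 1 it was -0.48 with an unadjusted p of 0.0014, both from edgeR. Its share of the high-voltage pores was 30.7% ± 1.57 in WT and 27.4% ± 1.83 in cKO (SD, n = 3).

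Kcnd3, whose channel carries the A-type current, was at 61.6, 50.6 and 55.0 CPM in WT and at 74.8, 61.7 and 57.5 CPM in cKO. Only WT replicate 1 reached into the cKO range. Its log2 fold change was 0.22 (SE 0.12), with an unadjusted p of 0.102. Its exons overlap the antisense gene Kcnd3os. Kcnd3 held 67.3% ± 2.90 of Kv4 TPM in WT and 72.5% ± 2.34 in cKO (SD, n = 3).

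**Figure D3:**
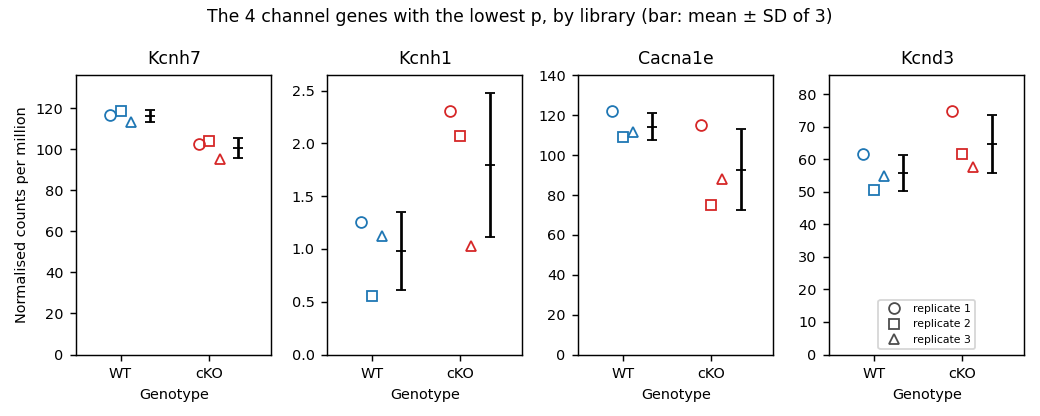
Normalised counts (CPM) of the 4 channel genes with the lowest unadjusted p, by genotype and library, with axes from 0. Symbols give the replicate and black bars the mean ± SD of 3 libraries. For Kcnh7 the genotypes do not overlap, and for Kcnh1, Cacna1e and Kcnd3 they do.

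The other 8 genes among the 12 with the lowest p had unadjusted p values from 0.113 (Scn11a) to 0.316 (Cacna1s) in the edgeR fit. For the 6 of them reported here, log2 fold changes were 0.45 (SE 0.25) for Scn11a, 0.27 (SE 0.19) for Kcna2 and 0.29 (SE 0.22) for Cacna1g. They were -0.12 (SE 0.09) for Cacng7, -0.08 (SE 0.07) for Cacng4 and -0.44 (SE 0.41) for Cacna1s. Cacna1g, a T-type pore, was at 57.6, 51.9 and 40.7 CPM in WT and at 74.8, 40.9 and 68.2 CPM in cKO, with wide overlap. Of the most abundant genes not yet given, Cacna2d1 differed by -0.07 (SE 0.08) on the log2 scale and Cacnb3 by -0.06 (SE 0.14). Cacna1h had a log2 fold change of -0.12 (SE 0.14), Scn3b -0.12 (SE 0.19), Scn8a -0.02 (SE 0.16) and Kcnq3 -0.00 (SE 0.18). Kcnh6 was at -0.11 (SE 0.18), Kcna3 at 0.07 (SE 0.18) and Cacnb1 at 0.09 (SE 0.17).

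By class, the summed TPM of cKO libraries relative to WT ran from 0.905 for the high-voltage calcium pores to 1.08 for Kv4. The high-voltage pores summed to 64.33, 47.61 and 50.72 TPM in WT and to 63.27, 40.57 and 43.37 TPM in cKO. Kv4 summed to 28.28, 23.04 and 24.57 TPM in WT and to 31.73, 24.97 and 25.50 TPM in cKO. All 67 channels together summed to 1050.92, 808.85 and 895.32 TPM in WT and to 1041.20, 783.70 and 814.46 TPM in cKO. Their means were 918 ± 123 and 880 ± 141 TPM (SD, n = 3), so that the spread within a genotype was larger than the difference between genotypes.

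What most channels shared was their order across libraries. In CPM, replicate 1 was the highest library both within WT and within cKO for 35 of 56 channels (62.5%), against 25.2% of all genes tested. Replicate 2 was the highest in both for 2 channels (3.57%), against 17.6% of all genes, and replicate 3 for 4 channels (7.14%), against 7.5%. Taken singly, WT replicate 1 was the highest WT library for 39 channels (69.6%, against 40.3% of all genes) and cKO replicate 1 the highest cKO library for 42 (75.0%, against 38.6%). These are counts over genes that share the same libraries, and they are given without a test.

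The size of this shift was read as the log2 level in a library minus the mean of the other libraries of its genotype. The channels' median was 0.22 in WT replicate 1 and 0.34 in cKO replicate 1, and 45 and 48 of 56 channels lay above 0. For replicate 2 it was -0.17 (WT) and -0.23 (cKO), and for replicate 3 it was -0.04 (WT) and -0.12 (cKO). The median over all genes tested lay between -0.01 and 0.01 in each of the 6 libraries. That is largely set by the TMM scaling of the libraries, and is not a separate result.

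**Figure D4:**
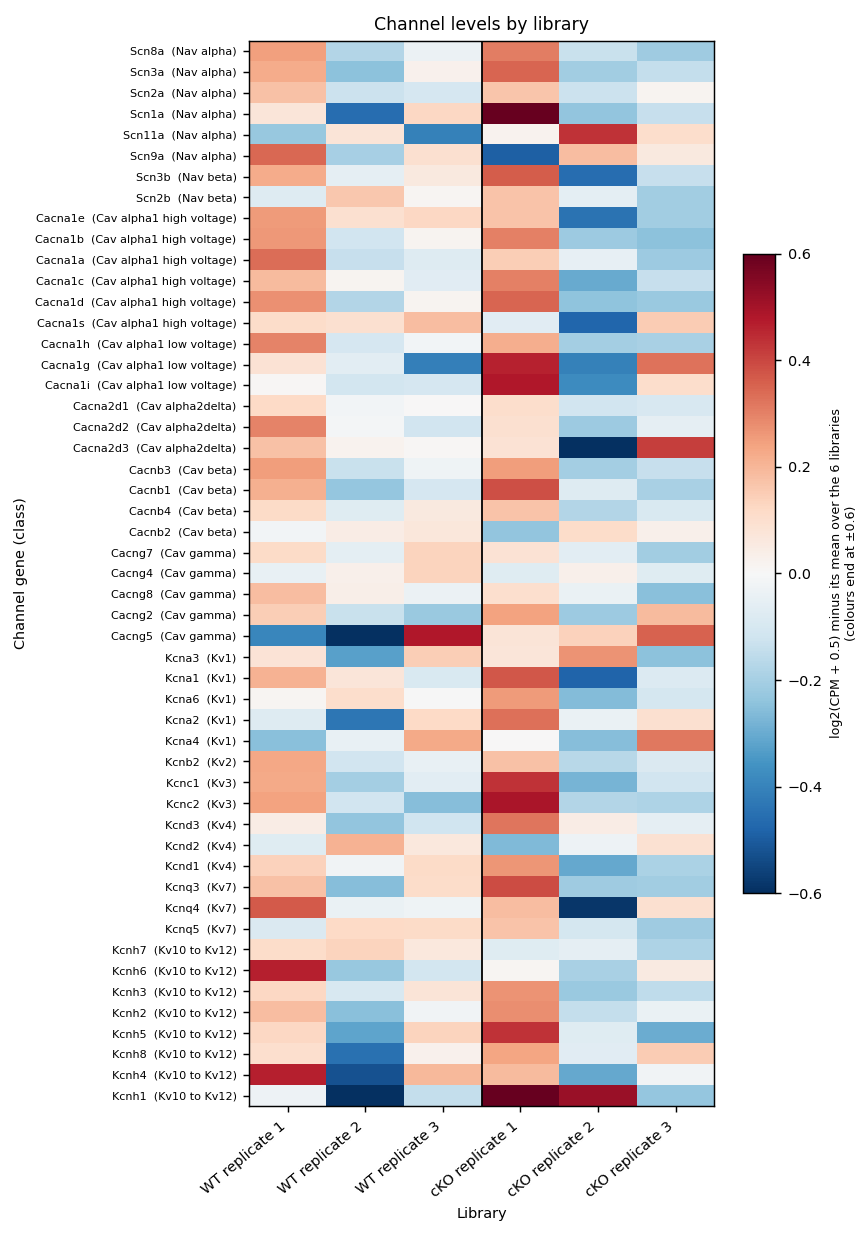
Level of 51 of the 56 tested channel genes in each library, as log2(CPM + 0.5) minus its mean over the 6 libraries (colour, red above and blue below the mean, ending at ±0.6). Columns are libraries and rows are genes by class. The columns of WT replicate 1 and cKO replicate 1 are mostly red and those of replicate 2 mostly blue.

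The pattern was met in most classes. In each of the 13 classes the summed TPM was highest in replicate 1 within WT and within cKO. This result for all 13 classes is for TPM only. The counts of genes below were made in CPM, where the order can differ. Cacng7 was highest in WT replicate 1 in TPM (180.16, against 173.61 in replicate 3). In CPM it was highest in WT replicate 3 (198, against 195 in replicate 1). Gene by gene, replicate 1 was the highest library in both genotypes for 5 of 6 high-voltage calcium pores, 3 of 3 T-type pores, 2 of 2 Kv2 genes and 3 of 3 Kv3 genes. Kcnc1 was at 29.9, 22.0 and 24.3 CPM in WT and at 34.5, 20.9 and 23.4 CPM in cKO, and Kcnq3 at 144, 107 and 138 CPM in WT and 168, 110 and 111 CPM in cKO. In both genes the replicate 1 libraries of opposite genotype were closer to each other than to replicate 2 of their own genotype. For Kcnq3, however, WT replicate 1 was closer to WT replicate 3 than to cKO replicate 1. The replicate 1 order held for 1 of 5 Kv1 genes, 1 of 3 sodium channel beta subunits, 2 of 5 gamma subunits and 3 of 7 sodium channel alpha subunits. The classes were not tested against each other. Kcnh7, Cacng4, Cacng7, Kcna3 and 17 other tested channels did not follow it.

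Markers of several cell types moved with this order. Relative to the mean of the 6 libraries, the channels' summed CPM was 112%, 94.0% and 101% in WT replicates 1 to 3 and 114%, 88.9% and 90.3% in cKO replicates 1 to 3. Cortical neuron markers were at 109%, 93.4% and 103% in WT and at 113%, 91.2% and 90.1% in cKO, and replicate 1 was highest in both genotypes for 7 of 8 of them. Radial glia markers ran the other way, at 80.2%, 109% and 110% in WT and 78.6%, 117% and 105% in cKO, with replicate 1 lowest in both genotypes for 5 of 7 and highest for 0 of 7. Cajal-Retzius markers were highest in replicate 1 of both genotypes for 4 of 5 genes. So were 2 of 4 intermediate progenitor, 3 of 5 erythroid and 2 of 3 microglia markers, against 25.2% of all genes tested. Among interneuron and ventral forebrain markers it was 2 of 9, among endothelium and sensory neuron markers 1 of 4 each. For fibroblast and meninges markers it was 0 of 4, and for skeletal muscle 0 of 2. None of the listed marker genes found in the data is at 0 in all libraries. Of the 10 skeletal muscle markers, 8 were found there. The part of the cell composition in the channels' order was not tested.

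**Figure D5:**
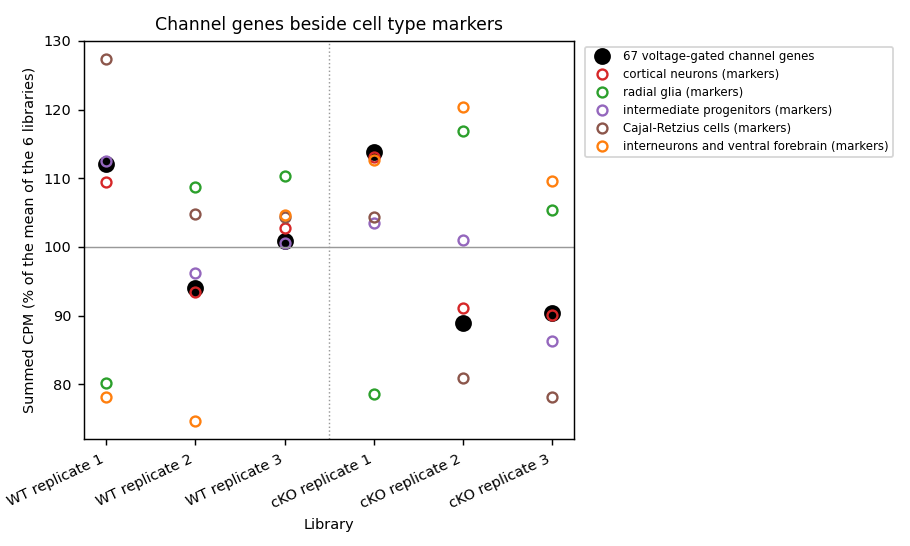
Summed CPM of the 67 channel genes (filled black) and of the markers of 5 cell types (open circles) in each library, as a percentage of the mean of the 6 libraries. The channels and the cortical neuron markers are both above 109% in replicate 1 of each genotype, where radial glia markers are at or below 80.2%. Intermediate progenitor and Cajal-Retzius markers are also highest in replicate 1 within each genotype.

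Base composition also moved with it. The deviation of replicate 1, averaged over both genotypes, had a Spearman correlation with transcript GC content of 0.30 across 12887 genes and of 0.16 across the 56 channels, which share libraries and are not independent. The channels' transcripts had a median GC content of 51.5% and a median length of 5868 bases, against 50.2% and 3321 bases for all genes tested. Within each of 5 classes of GC content the channels' median deviation was above that of all genes. Below 44% GC it was 0.24 for 8 channels against -0.07 for all genes, and from 56% GC upward it was 0.36 for 18 channels against 0.12. With transcript length, the Spearman correlation was 0.16 across the 12887 genes and 0.15 across the 56 channels. The part of GC content or length in the channels' order was not tested. The series text speaks of several sequencing batches without tying a library to one, so whether libraries of the same number share a batch is not known, and the part of a batch was not tested.

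Interneuron and ventral forebrain markers, in contrast, were at 157, 150 and 211 CPM in WT and 227, 242 and 220 CPM in cKO. Of the 9 tested, 6 were higher in cKO at an unadjusted p under 0.05 in edgeR, against 1.75% of all genes tested. No gene of the table was called higher at an adjusted p under 0.05, these markers included. Dlx1 and Dlx2 overlapped between genotypes, at 36.3 and 19.2 CPM in WT replicate 3 and at 31.0 and 14.6 CPM in cKO replicate 1. The Kv3 genes Kcnc1 and Kcnc2, which mature fast-spiking interneurons carry, had log2 fold changes of 0.05 (SE 0.20) and 0.13 (SE 0.30) and did not pass the test. Scn1a, the sodium channel of inhibitory neurons, was at 11.3, 7.68 and 11.7 CPM in WT and 16.8, 9.03 and 9.70 CPM in cKO. Its log2 fold change was 0.21 (SE 0.27), with cKO replicate 1 alone above the WT range.

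Other genes of channel complexes were read from a list of 96 auxiliary subunits and related channels, of which 61 were tested. At an adjusted p under 0.05, 0 of 61 passed. At an unadjusted p, 0 were higher and 2 were lower in cKO (3.28%, against 1.81% of all genes tested), and the median log2 fold change was -0.00. Hcn2, a pacemaker cation channel, was at 2.26, 2.04 and 1.998 CPM in WT and at 1.31, 1.25 and 1.145 CPM in cKO, with no overlap, a log2 fold change of -0.76 (SE 0.22) and an unadjusted p of 0.00860 in edgeR. Ank2, an ankyrin that anchors membrane proteins, was at 261, 249 and 272 CPM in WT and at 236, 235 and 227 CPM in cKO, again with no overlap. Its log2 fold change was -0.16 (SE 0.07) and its unadjusted p 0.0387. Kcnj5, an inward rectifier, did not overlap either, with a log2 fold change of -0.48 (SE 0.22) and an unadjusted p of 0.0585 in edgeR. Rem2 and, by a very small margin, Hvcn1 were also lower in cKO without overlap, with unadjusted p of 0.115 and 0.167 in edgeR. Of all genes tested, 4.83% had their cKO values all under their WT values, so such a gap was not particular to these partners. Whether it was more frequent among them was not tested. Kcnip1, a partner of Kv4 channels such as that of Kcnd3, averaged 28.7 ± 1.99 TPM in WT and 22.0 ± 5.27 TPM in cKO (SD, n = 3). Its log2 fold change was -0.37 (SE 0.17), with an unadjusted p of 0.0610 in edgeR. For Kcnip1, cKO replicate 3 was at 23.4 CPM, within the WT range of 22.9 to 24.8 CPM. The other Kv4 partners tested had log2 fold changes of -0.04 (Kcnip2), -0.005 (Kcnip3), -0.15 (Kcnip4), 0.17 (Dpp6) and -0.16 (Dpp10). Ank3, which gathers sodium channels at the axon initial segment, averaged 55.9 ± 7.61 and 52.6 ± 9.33 TPM, and Fgf13, which binds their tails, 55.5 ± 3.97 and 56.2 ± 3.07 TPM (SD, n = 3). The highest library was replicate 1 in both genotypes for 22 of these 61 genes (36.1%, against 25.2% of all genes tested), Ank3 among them.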

How the data were processed

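Total RNA from E13.5 mouse cortex was sequenced by the authors as mRNA libraries, 3 WT and 3 cKO. Estimated counts, TPM and FPKM per gene and library were deposited by the authors. Estimated counts were deposited without scaling for depth, with 10.9% of values not whole, TPM as transcript shares scaled to an equal sum per library, and FPKM scaled by length and depth. FPKM and 6 columns of group means were not used. The submitters' processing notes name HISAT2 2.2.1, Bowtie2 2.4.5, RSEM 1.3.1, GRCm38 and mm10. The annotation and strand setting are not given in the sources used here. Of the channels, 19 have exons that overlap another gene in GENCODE M21, mostly antisense, and are uncertain for that reason.

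Groups and replicate numbers were taken from sample titles. Counts were rounded, genes kept by filterByExpr (minimum count 10, minimum total 15), scaled by TMM (factors 0.987 to 1.03) and fitted by genotype alone with the quasi-likelihood test of edgeR 4.0.16 (R 4.3.3), at a common dispersion of 0.0169. p-values are two-sided, adjusted by Benjamini and Hochberg over 13340 genes, with a threshold of 0.05. The standard error is the size of the log2 fold change over the square root of F. No exact permutation test was used, since its smallest p with 3 libraries a group is 0.1. A count of 0 allows up to 3 counts, for counting error only.

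Named genes were the 12 tested channels with the lowest p, the 12 with the highest WT TPM, the highest member of each class, and untested members with at least 10 counts in a library. Of the members, 5 enter the counts, sums and medians and are not reported singly here. Any other gene was picked with its values in view. The members, lists and markers were chosen with earlier results of these data known. Alternatives were DESeq2 1.42.0, limma-voom, limma (3.58.1) on log2(TPM + 1), RLE factors, a filter of 10 counts in each library or none, the replicate number as a block, each library left out, and WT replicate 2 and cKO replicate 3 left out together. The fit was tested on simulated data. All 67 channels were matched by Entrez identifier to RefSeq genes of GRCm38.p6, and transcript GC content, known for 96.6% of tested genes, was taken from GENCODE M21.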

Additional observations from a re-analysis of the deposited data

How the results depend on the processing

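No channel gene passed an adjusted p under 0.05 in any of the 14 alternatives, and 11 of the 19 named channel genes kept their sign in all that could be run. Deviations of same-numbered libraries correlated at 0.41, 0.31 and -0.02 for replicates 1, 2 and 3, so the numbers were not taken to pair all samples. With the replicate number as a block, 1 channel (Kcnd3) was higher and 2 (Kcnh7 and Cacna1e) were lower at an unadjusted p under 0.05. The block also gave 477 genes higher and 613 lower at an unadjusted p in the whole table, 1 and 1 at an adjusted p, and 1 and 5 of the partner genes at an unadjusted p.

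Without both WT replicate 2 and cKO replicate 3, 1 channel (Kcnh1) was higher and 0 were lower at an unadjusted p, with 105 and 141 in the whole table and 1 and 1 at an adjusted p. DESeq2 called 2 genes higher and 3 lower at an adjusted p in the whole table, and 1 partner gene lower at an unadjusted p. With no filter, 390 genes were higher at an unadjusted p, and 1 partner gene was higher. With limma on log2(TPM + 1), Scn8a turned to 0.000191.

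Leaving out each library in turn gave 0 to 1 genes higher and 0 to 1 lower at an adjusted p in the whole table, and 121 to 571 higher and 118 to 482 lower at an unadjusted p. For channels at an unadjusted p it gave 0 to 3 higher and 0 to 7 lower, and for partner genes 0 to 1 higher and 1 to 5 lower. The 7 lower channels came without cKO replicate 1 and included Kcnh7, Scn3b, Cacna1e, Cacna1b and Cacna1c. The median log2 fold change ran from -0.100 to 0.0694 for gamma subunits and from -0.00285 to 0.0113 for all genes tested. Genes whose sign turned ranged from -0.263 to 0.0149 (Cacna1h), -0.102 to 0.229 (Cacnb1), -0.201 to 0.0666 (Cacnb3), -0.0714 to 0.198 (Kcna3), -0.246 to 0.136 (Kcnh6), -0.225 to 0.102 (Kcnq3), -0.363 to 0.0516 (Scn3b) and -0.188 to 0.113 (Scn8a). Ybx1 ranged from -3.28 to -2.75, with an adjusted p of 0.0206 without WT replicate 2. Its log2 fold change was -3.00 with DESeq2 (adjusted p 5.81e-10), -2.95 with the replicate block (adjusted p 0.0381) and -3.49 without both libraries (adjusted p 0.0188). The cause of these changes was not tested. Of the channels, 11 had too few counts for a test at this depth.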
